A study of Homo sapiens with 8 samples.

Results

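LNCaP-FGC cells treated with A-485 plus I-CBP112 were compared with LNCaP-FGC cells treated with A-485 alone, so that the difference is what I-CBP112 added once the other compound was present. The comparison used 4 of the 8 RNA-seq libraries of the series, 2 per group, chosen by their labelled treatment and matched within replicate 1 and within replicate 2. It was described across the 11876 of 19431 genes that had a scaled FPKM (fragments per kilobase of transcript per 1e+06 fragments, after rescaling each library) of at least 1 in at least 2 libraries. LNCaP-FGC is an established human prostate carcinoma line of luminal type that depends on androgen. The 4 groups of the series received the solvent DMSO, I-CBP112, A-485, or I-CBP112 together with A-485, each for 24 h and with 2 libraries. The sources used here give no doses. Whether the libraries of a group are separate cultures is not said in the labels, and p-values therefore reflect a spread between samples that may be technical only.

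The coactivators p300 (EP300) and CBP (CREBBP) are paralogous enzymes that acetylate histones, among other proteins, at enhancers and promoters. Each carries an acetyltransferase domain, whose active site A-485 occupies in competition with acetyl-CoA, and a bromodomain, a pocket that binds acetylated lysine and that I-CBP112 occupies. In luminal prostate cells both proteins serve as coactivators at the enhancers of androgen-induced genes such as KLK3.

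Depth differed between the libraries, and replicate 2 had fewer estimated fragments than replicate 1 in every group. By estimate, the libraries compared had 4.89 to 24.7 M fragments (units of 1e+06) assigned to listed transcripts (A-485 replicate 2 the lowest, A-485 replicate 1 the highest), and all 8 held 3.83 to 24.7 M. Before scaling, the median gene was higher with both compounds than with A-485 alone by 0.09 (log2) in replicate 1 and 0.34 in replicate 2, a mean of 0.22; after scaling the median was 0.01, and changes are given relative to it. Luminal markers were present in the 4 libraries, with KRT8 at 527 to 1438 and EPCAM at 49.8 to 75.7 scaled FPKM. Of the markers of other cell types, some that define the type were at 0 in all 8 libraries, namely TP63 for basal cells, FAP and CDH5 for stromal and endothelial cells, and PTPRC, CD3E, CD2 and MS4A1 for immune cells. Others were measured: in the 4 libraries compared ACTA2 was at 13.1 to 18.6 scaled FPKM, COL1A1 at 9.27 to 11.6 and VIM at 1.64 to 5.47. The summed level of the 7 basal markers was 4.74 and 6.05 scaled FPKM with A-485 and 3.75 and 7.35 with both compounds (3.23 and 11.9 with DMSO, 4.07 and 24.0 with I-CBP112, where KRT5 stood at 13.97 in replicate 2), that of the 11 stromal and endothelial markers was 38.0 and 32.0 against 30.8 and 30.2, and that of the 9 immune markers, almost all of it CD68, was 5.75 and 2.58 against 6.18 and 4.36. In bulk samples, fewer cells of a type and less RNA per cell cannot be told apart.

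More genes fell than rose when I-CBP112 was added to A-485. Of the 11876 genes, 171 (1.44%) passed the test (limma on log2(scaled FPKM + 1) with the replicate number as a block, Benjamini-Hochberg adjusted p under 0.05), of which 140 (1.18%) were lower and 31 (0.261%) were higher with both compounds. On the log2(scaled FPKM + 1) scale of the test, 114 of the lower genes differed by at least 2-fold and 22 by at least 4-fold. Of the higher genes 21 differed by at least 2-fold on that scale and 0 by at least 4-fold. The added 1 makes changes of low genes smaller there. By mean scaled FPKM, PMP22 (log2 fold change 1.25) was 5.62-fold higher and ACPP (-1.77) 7.07-fold lower. PMP22 was low, at 0.482 and 0.393 with A-485 and 2.97 and 1.94 with both compounds. It was near the threshold (limma, adjusted p = 0.0492) and was not called without the replicate block. The prostate kallikreins, MYC and DNA replication genes were among those that fell, and HEXIM1, JUN and INSIG1 among those that rose. Calls within gene lists, given below, are to be read against the 1.18% lower and 0.261% higher among all genes tested. The 171 genes had the same sign in both replicate pairs, which was likely since they were called from these pairs. The pairs shared a sign for 71.7% of all genes tested.

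**Figure D1:**
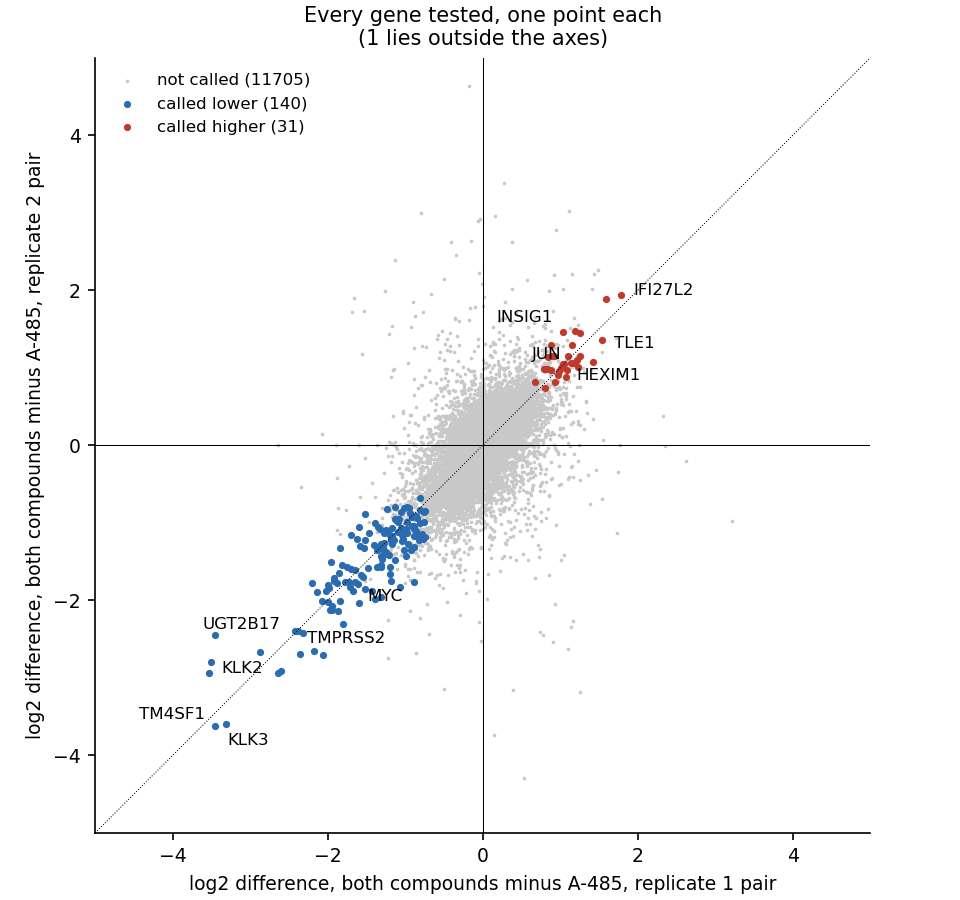
Log2 difference between both compounds and A-485 alone in the replicate 1 pair (horizontal axis) and in the replicate 2 pair (vertical axis), 1 point per gene tested; blue points are the 140 genes called lower, red points the 31 called higher, grey points the genes not called, and the dotted line marks equal differences. The called genes lie near the dotted line in the lower left and upper right, with KLK3 and TM4SF1 farthest to the lower left and IFI27L2 farthest to the upper right; 1 gene not called lies outside the axes.

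The number of called genes, and the excess of lower over higher, moved with the fit. Without the replicate block 96 genes were called (11 higher, 85 lower), all 96 among the 171, and on the FPKM as deposited 111 were called, of which 53% were lower against 82% after scaling. Leaving out A-485 replicate 1 or A-485 replicate 2 left 1 call each time, KLK3, leaving out replicate 1 or 2 of both compounds left 40 or 30 calls, and leaving out DMSO replicate 1 or 2, which are in neither group compared, gave 641 (258 higher, 383 lower) or 702 (288 higher, 414 lower). With only the 4 libraries compared in the fit, 1200 were called (529 higher, 671 lower). The 171 genes kept their direction in each of these fits. The fits reuse libraries of the fit that called the genes, so this is no independent support.

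The largest fall by log2 fold change was in KLK3, which encodes prostate-specific antigen, a serine protease of the prostate secretion and a textbook androgen-induced gene. Its level was 570.4 and 629 scaled FPKM in the A-485 libraries and 51.1 and 50.2 in the libraries with both compounds, against 2323 and 1982 with DMSO and 1099 and 1064 with I-CBP112 alone. No library of any group overlapped another group, and the libraries with both compounds were the lowest. The fall from A-485 alone was 11.8-fold, a log2 fold change of -3.54 ± 0.15 (SE, n = 2 per group; limma, adjusted p = 0.000431), with -3.46 and -3.62 in the 2 pairs. KLK2, the neighbouring kallikrein, went from 107 and 111 to 8.34 and 13.6 scaled FPKM, a log2 fold change of -3.23 ± 0.27 (limma, adjusted p = 0.00238). KLK4, another kallikrein of the cluster, went from 146 and 138 to 30.9 and 39.8, a log2 fold change of -1.99 ± 0.16. KLK3 and KLK2 fell in proportion more than KLK4. In each of the 3 genes the A-485 libraries stood above both libraries with the 2 compounds. As a ratio of mean scaled FPKM the fall of KLK3 was not the largest. TM4SF1 fell 59.7-fold, SYT4 29.9-fold and ADRA2A 27.2-fold, all from far lower levels.

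The fall of KLK3 ran through its abundant transcripts. Its main transcript, KLK3-201, had 387 and 451 scaled FPKM with A-485 and 26.3 and 39.1 with both compounds, and KLK3-202 had 86.8 and 77.2 against 9.94 and 7.31. Over the 171 called genes, 482 transcripts reached a scaled FPKM of 1, and 81.5% of them moved in the direction of their gene in both pairs. Gene values are sums over transcripts, so a shared direction was likely and is no independent support. Of the transcripts reaching 5, 0 moved the other way by at least 2-fold in both pairs on the log2(scaled FPKM + 1) scale. KLK3-210 did so in replicate 1 only, from 0 with A-485 to 7.39 with both compounds.

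The promoters of KLK3 and KLK2 are shown because they share a stretch over the steroid response half-site letters of KLK3. Both are the 250 bases before the gene's start in RefSeq (GRCh38.p14, plus strand, chr19:50854665-50854914 and chr19:50873189-50873438), and capitals mark a run of 14 bases that is identical in both and begins 169 bases before the start in KLK3 and 175 in KLK2.
KLK3: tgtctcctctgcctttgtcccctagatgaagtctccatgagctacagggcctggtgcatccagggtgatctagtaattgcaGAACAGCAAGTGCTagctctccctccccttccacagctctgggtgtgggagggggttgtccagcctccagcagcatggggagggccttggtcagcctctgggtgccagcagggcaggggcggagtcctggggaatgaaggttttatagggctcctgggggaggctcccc
KLK2: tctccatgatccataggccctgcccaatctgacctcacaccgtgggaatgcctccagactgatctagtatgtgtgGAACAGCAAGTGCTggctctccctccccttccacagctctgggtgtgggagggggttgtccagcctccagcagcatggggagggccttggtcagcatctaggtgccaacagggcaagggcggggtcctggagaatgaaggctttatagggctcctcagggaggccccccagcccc
The longest run the 2 windows share has 80 bases and lies upstream of both starts. The half-site AGAACA (either strand) was found in KLK3 and not in KLK2, where the base before the shared run differs. Only exact letters were searched, so a near match such as that in KLK2 was not counted. Among the 300-base RefSeq windows (250 before to 50 after the start) of the 113 of 140 lower genes that matched, 9.74% held AGAACA, against 8.53% of 9734 windows of genes tested, and 0 of either set held the full palindrome of that half-site. CACGTG, the E-box bound by MYC and MAX, was in 11.5% of the lower genes' windows and 10.4% of all tested, and TATAAA in 15.04% against 5.21%. Among the 24 matched windows of higher genes 5 held TATAAA, so these letters were not particular to the genes that fell. These are matches of letters, given as a description with no test.

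Of 31 tested genes in a list of androgen-induced genes, 9 fell and 0 rose with both compounds, against 1.18% and 0.261% of all genes. The median log2 fold change of the list was -0.39, against 0.01 over all genes tested. Beside the kallikreins, TMPRSS2, a surface serine protease, went from 75.5 and 66.0 to 13.3 and 11.8 scaled FPKM, a log2 fold change of -2.41 ± 0.14 (limma, adjusted p = 0.00185). ABCC4 (a drug and prostaglandin exporter, -1.90), ACPP (prostatic acid phosphatase, -1.77), CENPN (-1.43) and C1orf116 (-1.20) were among the other members that fell. The list did not move as 1 block. FKBP5, an androgen-induced chaperone, had a log2 fold change of -0.29, SLC45A3 -0.08, NDRG1 0.05 and ACSL3 0.70, and none of the 4 passed the test.

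Of 9 tested members of a list of androgen-repressed genes, 5 fell, 1 rose and 3 did not pass, with a median of -1.69. UGT2B17, an enzyme that inactivates androgens by joining them to glucuronic acid, had 23.2 and 29.3 scaled FPKM with A-485 and 3.84 and 4.67 with both compounds, against 19.5 and 19.4 with DMSO. Its close relative UGT2B15 had 12.7 and 16.3 against 2.55 and 2.95. In both genes the libraries with the 2 compounds lay below all 6 other libraries. UGT2B17 fell by 2.37 ± 0.16 and UGT2B15 by 2.04 ± 0.15 on the log2 scale (limma, adjusted p = 0.00195 and 0.00238), and reads of these near-identical genes may have been divided between them by the authors' counting. CAMK2N1, an inhibitor of CaM kinase II (-2.01), BCHE, butyrylcholinesterase (-1.77), and the stress protein SESN1 (-1.69) fell too, and CITED2, a p300/CBP-binding protein, rose by 0.88 ± 0.15.

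**Figure D2:**
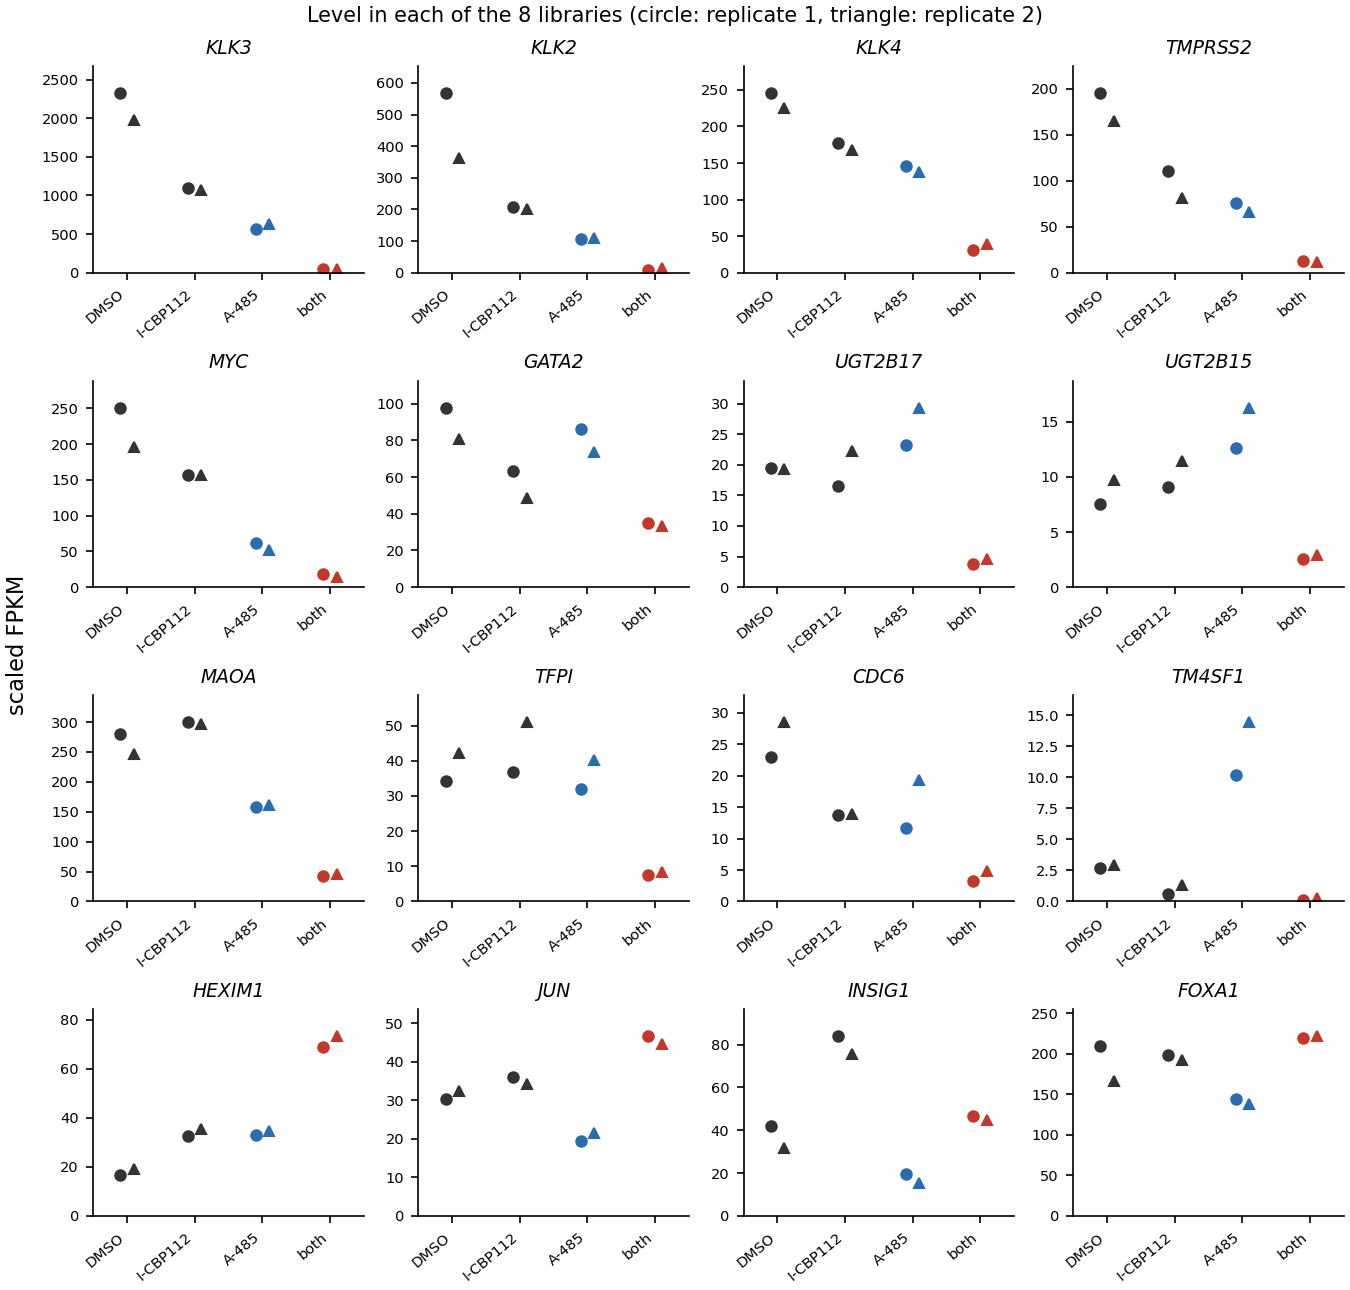
Scaled FPKM of 16 genes in each of the 8 libraries, on linear axes that start at 0; circles are replicate 1 and triangles replicate 2, with DMSO and I-CBP112 in black, A-485 in blue and both compounds in red. KLK3, KLK2, TMPRSS2 and MYC are lowest with both compounds and highest with DMSO, UGT2B17, UGT2B15 and TFPI are low with both compounds but in no other group, HEXIM1 is highest with both compounds, and FOXA1 did not pass the test.

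Among 17 tested luminal transcription factors and cofactors, 5 fell and 0 rose, with a median of -0.54. Of those that fell, GATA2 (a zinc finger factor) had a log2 fold change of -1.21, ELF3 (an ETS factor of epithelia) -1.20, SPDEF (a prostate ETS factor) -1.05 and CREB3L4 (a membrane-bound CREB-type factor of secretory cells) -0.89. The pioneer factor FOXA1 was at 144 and 138 scaled FPKM with A-485 against 219.7 and 222 with both compounds, which did not pass (0.64, 95% interval 0.30 to 0.98; limma, adjusted p = 0.0878), and HOXB13 at 239 and 167 against 209.9 and 169 (-0.08, -0.45 to 0.29). Levels of the targeted genes did not pass either, with EP300 at -0.09 (95% interval -0.52 to 0.34) and CREBBP at -0.16 (-0.81 to 0.48).

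Other products of the prostate epithelium that fell were in a list of secreted and surface proteins, of which 6 of 16 tested fell and 0 rose, KLK3, KLK2 and ACPP among them. PLA2G2A, a secreted phospholipase, went from 34.3 and 26.9 to 3.82 and 3.40 scaled FPKM, a log2 fold change of -2.77 ± 0.22. STEAP1 and STEAP2, proteins of the prostate cell surface, fell by 1.37 and 0.99 on the log2 scale. FOLH1, prostate-specific membrane antigen, had a log2 fold change of 0.50 and did not pass.

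MYC, the growth-promoting transcription factor, had 61.2 and 51.8 scaled FPKM with A-485 and 18.9 and 14.6 with both compounds. The groups did not overlap, and the log2 fold change was -1.70 ± 0.14 (limma, adjusted p = 0.00238), with -1.64 and -1.76 in the 2 pairs. MYC was the only called gene of 13 tested members of its network, and its partner MAX had a log2 fold change of 0.01. Of 37 tested nucleolar ribosome biogenesis genes, a class that MYC activates, 0 were called in limma (14 had an unadjusted p under 0.05), 31 had a value below 0 and the median was -0.28. AMD1, which makes the aminopropyl donor of polyamine synthesis, fell from 156 and 142 to 42.3 and 44.7 scaled FPKM, by 1.75 ± 0.15 on the log2 scale, and was the 1 called gene of 13 in the polyamine list.

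Part of the DNA replication machinery fell with both compounds. Of 40 tested genes of the G1/S transition and DNA replication, 12 fell and 0 rose, 38 had a value below 0, and the median log2 fold change was -0.93, against 0.01 and 5793 of 11876 below 0 over all genes tested. CDC6, which loads the replicative helicase onto origins, had 11.8 and 19.3 scaled FPKM with A-485 and 3.19 and 4.89 with both compounds (log2 fold change -1.70 ± 0.19; limma, adjusted p = 0.00847). RRM2, the small subunit of ribonucleotide reductase, had 24.6 and 30.4 against 7.81 and 8.66 (-1.62 ± 0.19). CCNE2, a cyclin that drives entry into S phase, fell by 1.68, while CCNE1 had a log2 fold change of 0.26 and did not pass. Of the helicase subunits MCM2 to MCM7, those that fell were MCM5 (-1.32), MCM7 (-1.30), MCM2 (-1.22) and MCM3 (-0.99), whereas MCM4 (-0.75) and MCM6 (-0.32) did not pass. The helicase loader CDT1, the clamp loader subunit RFC3, the flap nuclease FEN1 and the nucleotide enzymes TYMS and TK1 fell by 1.04 to 1.18 on the log2 scale.

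Genes of G2 and mitosis had a median nearer to 0, and the difference between the lists was not tested. Of 32 tested, 3 fell and 0 rose, all 32 had a value below 0 and the median was -0.74. CDK1, the mitotic kinase, went from 49.6 and 67.4 to 18.4 and 16.3 scaled FPKM (-1.68 ± 0.21), and CCNA2, its cyclin partner (-0.98), and the spindle protein NUSAP1 (-0.96) fell as well. The proliferation marker MKI67 had a log2 fold change of -0.97 and CCNB1 -0.05, and neither passed. Of 20 tested recombination and Fanconi repair genes 2 fell and 0 rose, RAD54L (-1.64) and FANCI (-0.98), with a median of -0.76. Of 14 D cyclins, partner kinases and CDK inhibitors 0 were called in limma (7 had an unadjusted p under 0.05), with CCND1 at -0.39 (95% interval -0.70 to -0.08) and CDKN1A at -0.06 (-0.41 to 0.29).

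**Figure D3:**
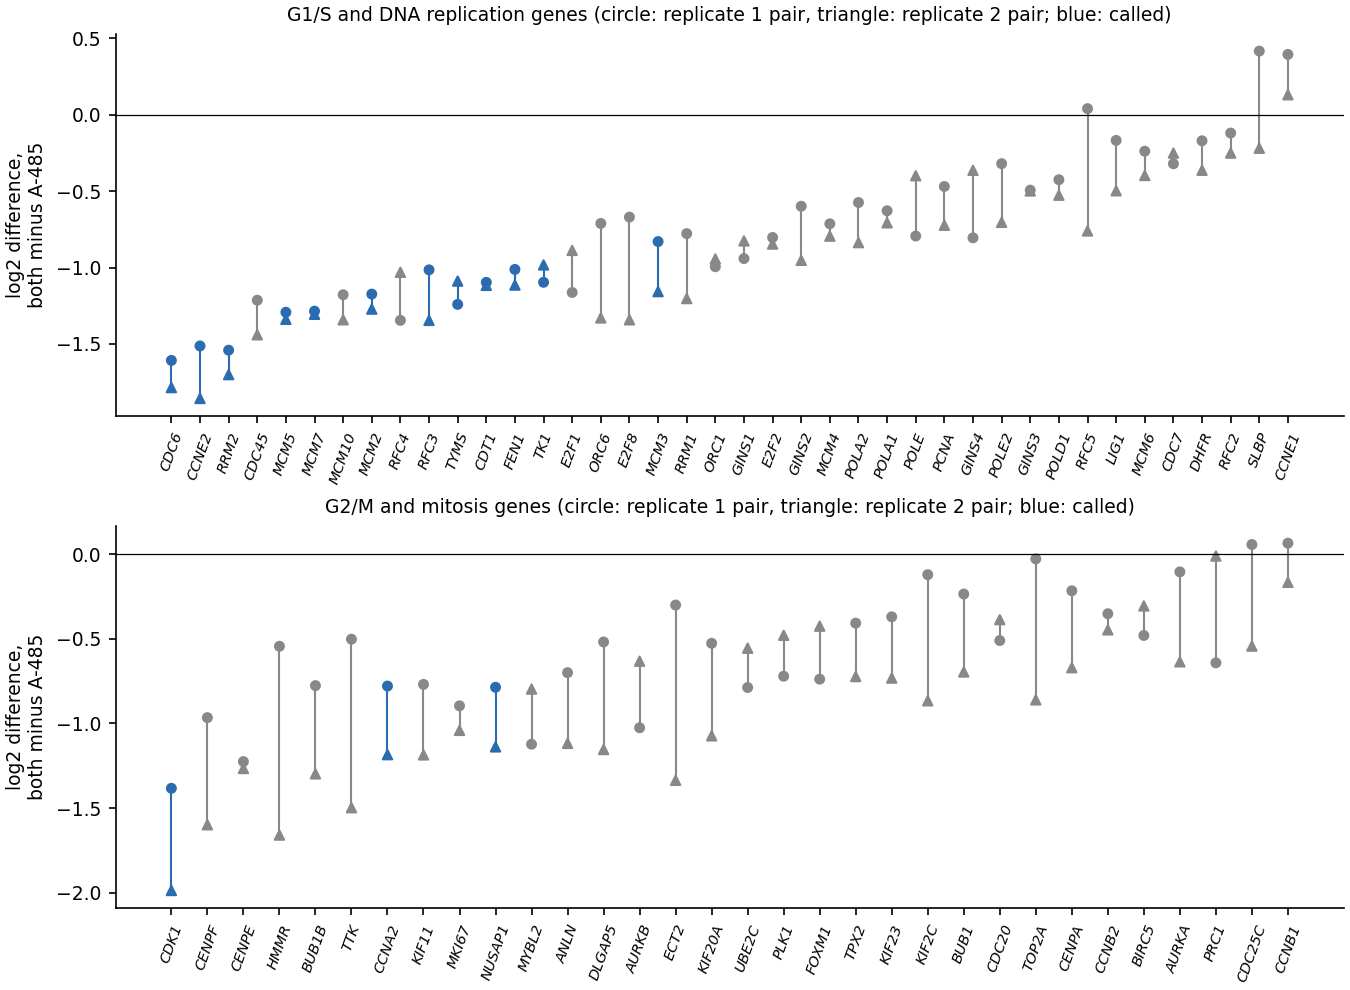
Log2 difference between both compounds and A-485 alone for each tested G1/S and replication gene (top) and each G2/M and mitosis gene (bottom), with the replicate 1 pair as a circle, the replicate 2 pair as a triangle and a line between them; genes that passed the test are blue. In the top panel 38 of 40 genes, and in the bottom panel all 32, have a mean below 0, and the triangles lie below the circles for most mitosis genes.

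The promoter windows were also searched for motifs bound by E2F factors, the regulators of S phase genes. TTTCGCGC was in 7.08% of the 113 windows of lower genes against 1.099% of the 9734 tested, and the related TTTGGCGC in 3.54% against 1.11%; these motifs were chosen after the calls were known, and no test was made. The genes with either were CDC6, CDK1, CENPU, DTL, IER5L, MCM2, MCM3, MCM7, NUSAP1, STEAP1, STEAP1B and ZNF367. ZNF367, a zinc finger protein, was the only called gene of 435 numbered zinc finger genes tested, with 3.42 and 5.01 scaled FPKM against 0.466 and 0.466 (-1.81 ± 0.20; limma, adjusted p = 0.00715). Its upstream sequence is shown with the motif in capitals, as GCGCGAAA because the match is on the other strand; the 250 bases lie before the start on the minus strand (RefSeq, GRCh38.p14, chr9:96418371-96418620), with the motif 35 bases before it.
ZNF367: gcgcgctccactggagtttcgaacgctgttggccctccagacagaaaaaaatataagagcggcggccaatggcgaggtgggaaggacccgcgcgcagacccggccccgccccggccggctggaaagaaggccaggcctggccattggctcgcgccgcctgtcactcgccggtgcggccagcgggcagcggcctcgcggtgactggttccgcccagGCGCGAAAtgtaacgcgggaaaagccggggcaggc

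Several of the largest falls were in genes outside these lists. TM4SF1, a surface protein of the tetraspanin-like family, had 10.2 and 14.5 scaled FPKM with A-485 and 0.128 and 0.285 with both compounds, against 2.68 and 2.96 with DMSO (-3.45 ± 0.21; limma, adjusted p = 0.00195). HGD, an enzyme of tyrosine breakdown, had 13.3 and 16.3 against 0.259 and 1.49 (-3.15 ± 0.26). With A-485 alone both genes stood above their DMSO level in both pairs, and with both compounds they were below every other library. MME, neprilysin, a peptidase of the luminal surface, went from 182 and 177 to 39.6 and 27.4 (-2.41 ± 0.24). Further falls among the 15 largest were those of COLCA1 (-2.78), SYT4 (a synaptotagmin, -2.76), the adrenergic receptor ADRA2A (-2.52), FAM198B (-2.39), RANBP3L (-2.38) and NETO1 (-2.05). COLCA1 is annotated as an antisense transcript, and whether the authors' counting used strand is not given in the sources used here.

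Of 26 tested p53 targets, 4 fell and 0 rose: PLK2 (-1.83), SESN1 (-1.69), BTG2 (-1.42) and GDF15 (-0.96), the last from 737 and 653 to 336 and 377 scaled FPKM. The median of the list was -0.34. Of 15 zinc transporters 2 fell, SLC30A4 (-0.91) and SLC39A8 (-0.79), against 1.18% of all genes tested. SLC39A8 was near the threshold (limma, adjusted p = 0.0486), and the median of the list was -0.12. The 2 called marker genes of other cell types were VWF (from 7.78 and 4.69 to 1.25 and 1.01 scaled FPKM) of the endothelial list and DDC (from 27.4 and 35.6 to 7.45 and 11.3) of the neuroendocrine list; CDH5 and FAP of the first and INSM1 of the second were at 0 in these libraries, and CHGA was at most 0.036. Other members of these lists had higher values with both compounds that did not pass. ENO2 had 35.5 and 33.8 against 73.3 and 70.8 scaled FPKM (log2 fold change 1.04; limma, adjusted p = 0.0742), SYP 2.76 and 1.96 against 4.82 and 4.58 (0.77; 0.156), and VIM 1.64 and 2.03 against 4.54 and 5.47 (1.08; 0.0692). Their part in the results was not tested.

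The genes that rose were fewer and changed less by log2 fold change. HEXIM1, which holds the elongation kinase P-TEFb in an inactive complex, had 32.8 and 34.7 scaled FPKM with A-485 and 68.8 and 73.3 with both compounds, against 16.8 and 19.2 with DMSO. The libraries with both compounds were the highest of the 8, and the log2 fold change was 1.05 ± 0.13 (limma, adjusted p = 0.0114). Of 19 tested P-TEFb and BET-related genes HEXIM1 rose and SERPINI1, an inhibitor of serine proteases, fell (-1.45), whereas BRD2 (0.79) and CDK9 (0.26) did not pass. HEXIM1 has 1 transcript in the table, and its upstream sequence is shown beside those of genes that fell; capitals mark TATAAA, and the 250 bases lie before the start on the plus strand (RefSeq, GRCh38.p14, chr17:45148225-45148474).
HEXIM1: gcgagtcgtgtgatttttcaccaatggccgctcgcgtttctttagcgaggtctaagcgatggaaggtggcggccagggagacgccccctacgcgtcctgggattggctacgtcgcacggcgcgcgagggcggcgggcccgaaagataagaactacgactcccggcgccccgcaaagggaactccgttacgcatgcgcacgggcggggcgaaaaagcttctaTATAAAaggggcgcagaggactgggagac

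JUN, a subunit of the AP-1 transcription factor, had 19.4 and 21.6 scaled FPKM with A-485 and 46.6 and 44.6 with both compounds (1.12 ± 0.13; limma, adjusted p = 0.0114). INSIG1, which retains the sterol sensor SCAP in the endoplasmic reticulum and is itself induced when sterols are low, had 19.8 and 15.4 against 46.5 and 44.8 (1.34 ± 0.14; adjusted p = 0.00715). INSIG1 was the 1 called gene of 25 cholesterol genes tested, of which 3 had a value below 0, and the median of the list was 0.23. By log2 fold change the largest rise among called genes was in IFI27L2, a mitochondrial protein related to interferon-induced genes. It went from 8.16 and 9.68 to 30.5 and 40.1 (1.86 ± 0.19, limma, adjusted p = 0.00627). TLE1, a corepressor, went from 3.21 and 4.42 to 11.2 and 12.96 (1.45 ± 0.18), against 17.3 and 15.4 with DMSO. SYCE1L was listed at 0 or indistinguishably near it in the 6 other libraries and at 2.02 and 2.71 with both compounds; it met the filter on low values only through these 2 libraries, so it had to differ, and its call is no support. The remaining genes among the 15 largest rises were CNPY4 (1.35), PMP22 (1.25), RCAN2 (1.25), the histone gene HIST2H2BE (1.22), CBLN2 (1.21), TYMP (1.16), TNFRSF12A (1.13), ADD3 (1.12), SSBP2 (1.11) and RTN1 (1.09).

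**Figure D4:**
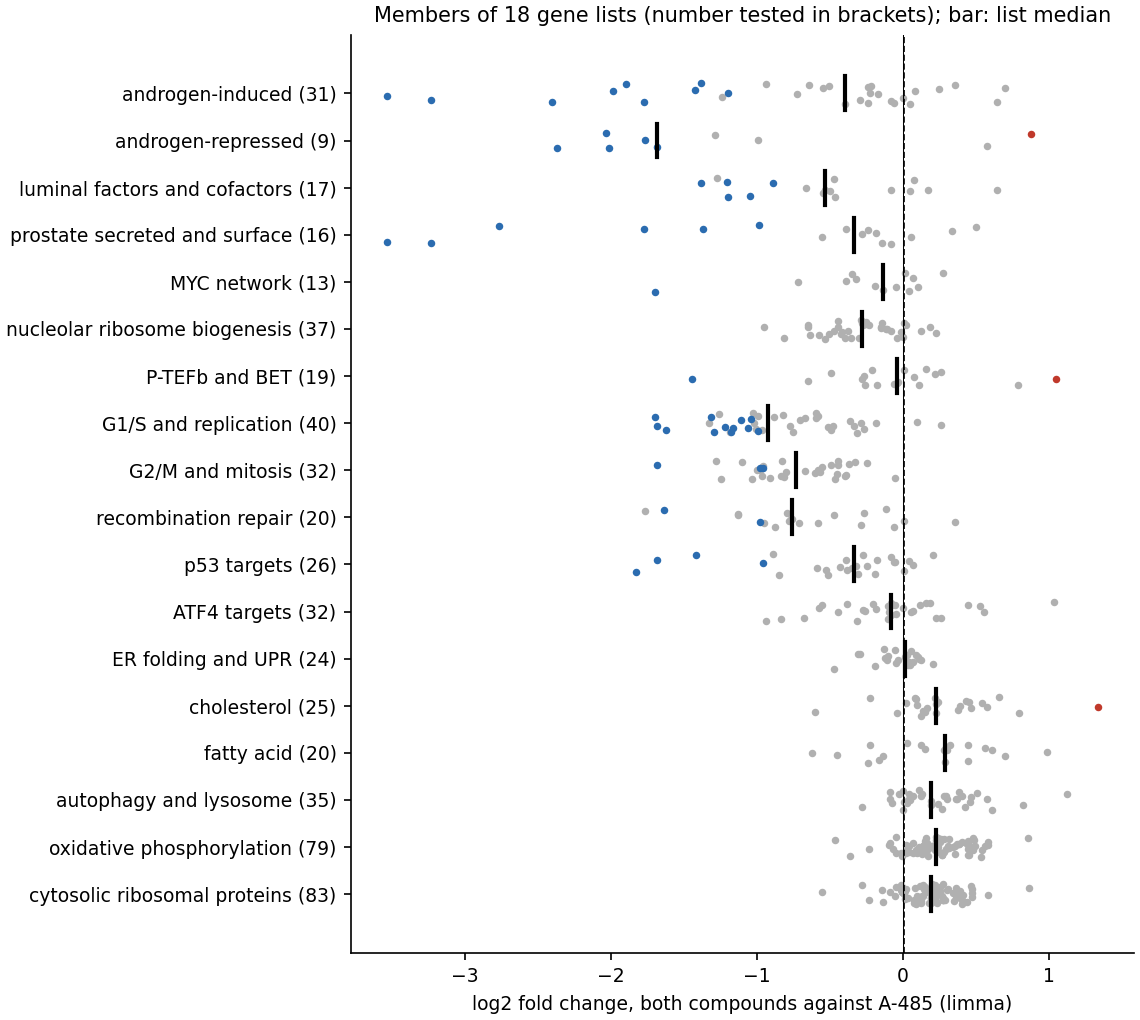
Log2 fold change of each tested member of 18 gene lists for both compounds against A-485 alone, with members that fell in blue, those that rose in red and the others in grey; black bars are list medians, and the dashed line is the median of all genes tested (0.01). The medians of the androgen-repressed (-1.69), G1/S (-0.93), recombination (-0.76) and G2/M (-0.74) lists lie farthest to the left, and the androgen-induced list spreads from -3.54 to 0.70.

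Many other groups showed no called gene in limma. Over all genes tested 1.44% were called and 18.5% had an unadjusted p under 0.05 in limma. At such a share a list of this size can hold 0 calls without differing from other genes. None of 32 ATF4 targets was called (8 had an unadjusted p under 0.05; median -0.08), nor any of 24 genes of endoplasmic reticulum folding (1; 0.02), 37 aminoacyl-tRNA synthetases (3; 0.07), 26 acetyltransferases and deacetylases (5; 0.09), 23 Polycomb proteins (5; -0.10) or 83 cytosolic ribosomal proteins (7; 0.19). The median of the ribosomal proteins and that of 79 nuclear oxidative phosphorylation genes (0.22, 18 with an unadjusted p under 0.05, 0 called) lay above 0. The 13 mitochondrially encoded genes had a median of -0.86 in the replicate 1 pair and 0.01 in the replicate 2 pair, and 0 were called (2 with an unadjusted p under 0.05). Of the 44 lists, 16 had a median of the other sign on the FPKM as deposited, the MYC network, ATF4 target, Polycomb, zinc transporter, numbered zinc finger and P-TEFb lists among them. With a common total only, 4 did, the aminoacyl-tRNA synthetase and endoplasmic reticulum lists among them, as did 4 with the length and GC correction (the endoplasmic reticulum list at -0.05) and 3 with voom.

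The change on top of A-485 was set beside the change that I-CBP112 made without it, in the ICBP112 and DMSO libraries, which share no library with the comparison above. There I-CBP112 gave 1 call among the 11876 genes (0.00842%; limma, 2075 with an unadjusted p under 0.05). That gene, DPP3, a dipeptidyl peptidase named here after its value was seen, had a log2 fold change of 2.54 ± 0.20. For the 140 genes that fell on top of A-485 the median log2 fold change of I-CBP112 on DMSO was -0.36, with 110 below 0, against a median of -0.02 and 6196 of 11876 below 0 over all genes. For the 31 that rose it was 0.31, with 25 above 0.

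The difference between these changes, tested as an interaction, was called for 11 genes (0.0926%; limma, 1771 with an unadjusted p under 0.05), and in all 11 the change was more negative with A-485 present. Among them were KLK3, COLCA1, UGT2B17, BCHE, UGT2B15, TFPI, DDC, MAOA, ACKR3 and PLK2, each also among the 140 lower genes. TFPI, an inhibitor of blood coagulation, was at 34.1 and 42.3 in the DMSO libraries (scaled FPKM), at 36.9 and 51.1 with I-CBP112, at 32.0 and 40.1 with A-485, and at 7.41 and 8.39 with both. MAOA, the mitochondrial monoamine oxidase, had 279 and 246, 300.1 and 296, 157 and 161, and 41.9 and 46.1 in the same order. ACKR3, an atypical chemokine receptor, had 128 and 105, 155 and 121, 155 and 145, and 44.7 and 41.9. In these 3 genes I-CBP112 alone left levels at or above the lower DMSO library, and the libraries with both compounds were the lowest of the 8. MAOA was already below DMSO with A-485 alone, by 0.72 on the log2 scale. By contrast HEXIM1 had an interaction of 0.16 (limma, adjusted p = 0.68), INSIG1 of 0.23 (0.60) and SPDEF of 0.03 (0.95), with changes by I-CBP112 on DMSO of 0.89, 1.11 and -1.08. Without the replicate block 0 genes were called in the interaction (limma, 1055 with an unadjusted p under 0.05). Leaving out 1 library gave 694 calls without DMSO replicate 2, 17 without DMSO replicate 1, 1 without replicate 1 of both compounds and 0 without any of the other 5.

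**Figure D5:**
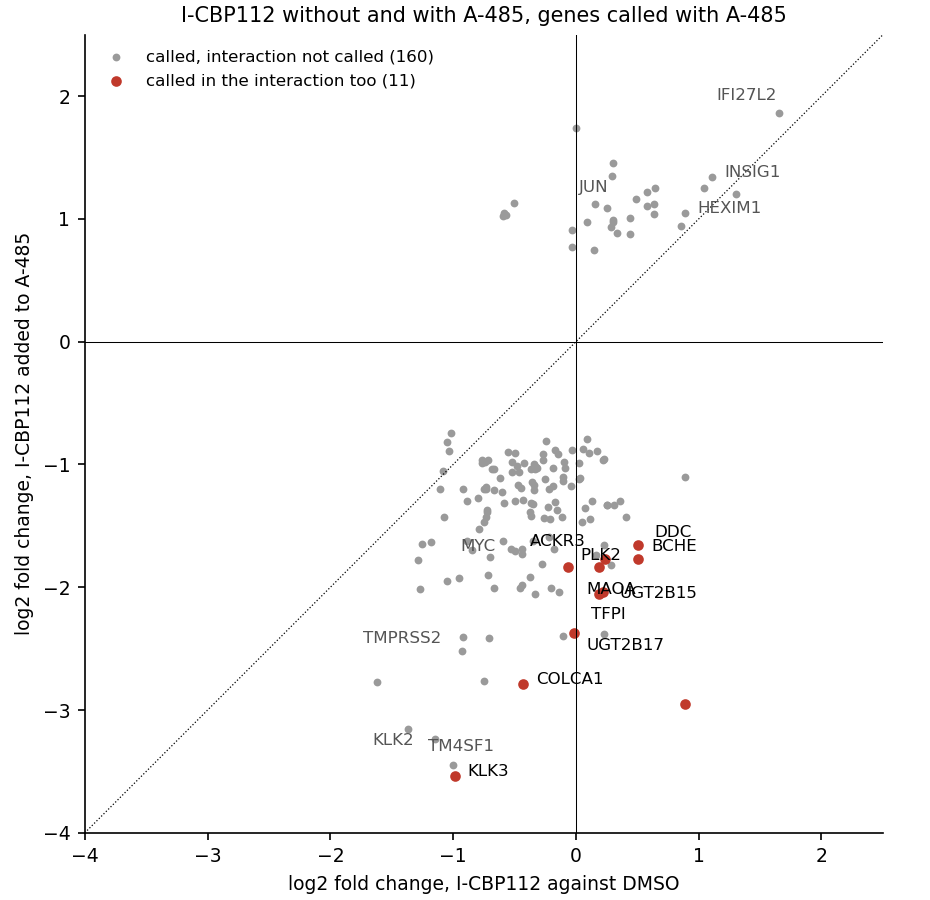
Log2 fold change of I-CBP112 against DMSO (horizontal axis) and of I-CBP112 added to A-485 (vertical axis) for the 171 genes called in the second; red points are the 11 genes called in the interaction too, and the dotted line marks equal changes. The 10 red points that carry names lie between -0.99 and 0.51 on the horizontal axis and between -3.54 and -1.66 on the vertical axis, while HEXIM1 and INSIG1 lie near the dotted line.

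With A-485 alone against DMSO, which shares the A-485 libraries with the main comparison and is given as values only, the genes that fell stood at different values. KLK3 had a log2 fold change of -1.84 with A-485, MYC of -1.96 and TMPRSS2 of -1.33. TM4SF1 stood at 1.78, RANBP3L at 1.76, BCHE at 1.07, CCNE2 at 1.04 and UGT2B15 at 0.68. GATA2 stood at -0.15, CAMK2N1 at -0.15 and TFPI at -0.08.

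Medians over the lower genes were set beside those over all tested genes, with no test. The transcript length was 2712 bases against 2335, the transcript GC content 46.1% against 49.97%, and the level with A-485 was 23.7 against 14.3 scaled FPKM. With both compounds the level was 8.44 against 13.5 scaled FPKM. Calling a gene lower favours a high level with A-485, so these levels are no independent trait of the lower genes. The higher genes had a median GC content of 56.7%. With each library corrected for transcript length and GC content within the replicate block, 267 genes were called, of which 213 were lower. Of the 171 called genes 170 were protein-coding, a share near that of all genes tested (11769 of 11876).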

How the data were processed

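The authors' deposited table held 81591 transcripts in 8 libraries. Although named as counts, 78.3% of its values were not whole, and the deposited values were treated as FPKM. Tools listed in the submitters' processing notes are STAR, Cufflinks, DESeq and DESeq2, with hg19 and GRCh37 as builds; no versions or roles are stated there. Transcripts were assigned to genes by Ensembl identifier in GENCODE 29 (GRCh38), used for names, lengths and GC content only; 74209 (91.0%) matched and were summed to 19431 genes. Fragment numbers were estimated from the step between low FPKM of transcripts of at least 3000 bases. Between 80.5% and 83.2% of low values were whole multiples of that step within 0.1 of a fragment, so no count test was run on them as the main result. Libraries were scaled to a total of 1e+06 and by a trimmed mean of log ratios (30% of ratios and 5% of levels trimmed). Genes reaching 1 in at least 2 libraries were tested.

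The 8 libraries were fitted in limma 3.58.1 (R 4.3.3), taking log2(scaled FPKM + 1), which understates the change of low genes, with 4 group means and the replicate number as a block (3 residual degrees of freedom), a trended and robust spread, and Benjamini-Hochberg adjustment over all genes at 0.05. Intervals are 95%, and standard errors follow the ± sign. The labels number the libraries 1 and 2 in each group. In the column names all libraries numbered 1 share a prefix and all numbered 2 share another, whose meaning is not stated. Deviations of same-numbered libraries from their group means correlated at 0.14 to 0.43 across genes for all 6 pairs of groups. Replicate 2 had the lower estimated depth in every group, so a shared effect of depth and a pairing cannot be told apart in these correlations. The block was kept because the comparison is defined within pairs. The fit was checked on simulated data.

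The genes named are the 15 largest falls and 15 largest rises among called genes with the same sign in both pairs, a panel of 15 genes of prostate and p300/CBP biology, up to 4 called members of each of 44 lists, and 10 genes with the lowest interaction p; other names were taken from the lists after their values were seen. Some genes that these rules or lists hold are not reported here, though they stay in every fit, count and median. The members and lists were chosen with earlier results of these data known. Promoter windows come from RefSeq (GRCh38.p14), a build other than the submitters', and were matched by gene symbol only. For the 31 higher genes, 24 windows matched, under 80%, so only the count with TATAAA is given for them. Alternatives covered the block, pseudocount, filter, scaling, spread, length and GC, voom on approximate fragments, and leaving out each library.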

Additional observations from a re-analysis of the deposited data

Results flagged for a closer look

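In 11 genes the effect of I-CBP112 differed between cells with and without A-485 by the interaction test (limma, adjusted p 0.0218 to 0.0486, n = 2 libraries per group), and 10 of them are given as the log2 fold change of I-CBP112 on A-485 minus that on DMSO. The interaction was -2.55 ± 0.21 for KLK3, -2.36 ± 0.26 for COLCA1 and -2.35 ± 0.22 for UGT2B17, whose changes on DMSO were -0.99, -0.43 and -0.02. It was -2.28 for BCHE, -2.26 for UGT2B15, -2.24 for TFPI, -2.16 for DDC, -2.02 for MAOA and -2.01 for ACKR3, whose changes on DMSO lay between 0.18 and 0.51. It was -1.77 for PLK2, at -0.07 on DMSO. BCHE, UGT2B15, TFPI, DDC, MAOA and ACKR3 were higher with I-CBP112 than with DMSO in both pairs and lower with both compounds than with A-485 in both pairs. These calls were not stable. There were 0 interaction calls without the replicate block, with the trend and robust steps removed, with no filter on low values, and in 5 of the 8 fits that left out 1 library (any of the I-CBP112 or A-485 libraries, or replicate 2 of both compounds), 1 without replicate 1 of both compounds, 17 without DMSO replicate 1 and 694 without DMSO replicate 2.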

How the results depend on the processing

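Every one of the 171 called genes kept its direction in those of the 20 alternative fits that tested it (163 were tested with a filter at 5). The alternative fits reuse libraries of the fit that called the genes, so a kept direction was likely and is no independent support. KLK3 was the only one called in all 20. With the trend and robust steps removed 130 genes were called (22 higher, 108 lower; interaction 0, with 1725 at an unadjusted p under 0.05). No replicate block gave 96 calls (11 higher, 85 lower) and 0 in the interaction (0 lower). With no filter on low values there were 70 (7 higher, 63 lower; interaction 0, with 1946 at an unadjusted p under 0.05), and with a filter at 5 there were 219 (52 higher, 167 lower; interaction 23, 1 higher and 22 lower). FPKM as deposited gave 111 (52 higher, 59 lower; interaction 11, 5 higher and 6 lower). The length and GC correction gave 267 (54 higher, 213 lower; interaction 5, all lower), voom on approximate fragments 578 (209 higher, 369 lower; interaction 76, 12 higher and 64 lower), and only the 4 libraries compared 1200 (529 higher, 671 lower). Pseudocounts of 0.1 and 0.5 gave 173 and 170, median-ratio scaling 168 and a common total 192. Leaving out 1 library gave 1 to 702 calls (0 to 288 higher, 1 to 414 lower) and 0 to 694 in the interaction (0 to 316 higher, 0 to 378 lower); where this left 1 library in a group, that library was assumed to vary like the others. The causes of these differences were not tested. Of genes not called, some changed sign. On FPKM as deposited HOXB13 was 0.19, CDKN1A 0.21, EP300 0.15 and CREBBP 0.079, and with length and GC correction EP300 was 0.0047. With 1 library left out the range was -0.30 to 0.13 for EP300, -0.43 to 0.10 for CREBBP (0.083 without replicate 2 of both compounds), -0.14 to 0.028 for CDKN1A, -0.022 to 0.48 for DST and -0.13 to 0.82 for CD68. With 2 libraries per group and a median standard error of 0.19 (log2), small changes were not detectable.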

Other observations

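Further lower genes lay outside every list. NRP1, a coreceptor for semaphorins and VEGF, had 98.2 and 74.6 scaled FPKM with A-485 and 22.6 and 17.9 with both compounds (log2 fold change -2.04). KLF4, a zinc finger factor of epithelia, had 6.88 and 6.21 against 0.948 and 0.957 (-1.95). AMACR, the racemase used as a prostate cancer marker, had 55.3 and 62.4 against 21.6 and 25.1 (-1.30). GTF2H2 and its near-identical copy GTF2H2C were both lower (-1.03 and -1.11), and reads of the copies may have been divided between them by the authors' counting. These genes were chosen after their values were seen, and each passed the test in limma.

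Among the higher genes outside the lists, METRN, a secreted neurotrophic factor, had 225 and 198 scaled FPKM with A-485 and 474 and 365 with both compounds (0.98). QSOX1, an enzyme that forms disulfide bonds, had 26.6 and 24.2 against 48.0 and 48.8 (0.91).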
